A study of Homo sapiens with 6 samples.

Results

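The ligands and receptors of the TNF superfamily were compared between ATRX knockout and control glioma cells. Members were the genes with a TNFRSF or TNFSF number in the symbol, together with TNF, LTA, LTB, LTBR, FAS, FASLG, CD27, CD70, CD40, NGFR, EDAR, EDA2R and RELT, and 43 of the 33616 genes tested met this rule. They comprised 17 ligands and 26 receptors, of which 8 have a death domain, 3 are decoys and 15 belong to neither class. CD40LG was not analysed here, nor were 3 transcript clusters whose annotation joins a family symbol with other genes. Expression was measured in bulk total RNA as log2 array intensity, so a difference of 1 is a doubling.

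The groups were ATRX KO (3 arrays), cells that carried CAS9 and sgRNAs against ATRX, and ATRX NC (3 arrays), cells that carried CAS9 and an sgRNA without a target. Both were made in LN229R according to the design text, while the sample labels give the parental name LN229. LN229R is a glioblastoma (GBM) line made resistant to temozolomide (TMZ) by long exposure, according to the methods. The paper names LN229R, HG7R and HG9R as knockout lines and does not state which was profiled. All cells had been selected with puromycin for 7 days (10 mg/ml in the labels, µg/mL in the methods) and then infected with sgRNA virus for 24 h. Nothing in the sources states that the 3 samples of a group were separate cultures or clones, so p-values measure only how far these samples spread, and that spread may be technical.

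Ligands of this family are mostly trimeric proteins on the cell surface or shed from it, and they cluster receptors on the same or neighbouring cells. Receptors with a death domain can recruit FADD and CASP8 and start apoptosis, other receptors recruit TRAF adaptors that lead to NF-kB and JNK signaling, and decoy receptors bind ligand without passing on a full signal. In glioma, FAS and the receptors of TNFSF10 (TRAIL) are best known as entry points of extrinsic apoptosis, whereas TNFRSF12A (Fn14) and TNFRSF19 (TROY) are known for migration and invasion.

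ATRX itself was at log2 levels of 8.47, 8.67 and 8.75 in ATRX KO arrays, against 10.49, 10.22 and 10.14 in ATRX NC arrays. Its level in knockout cells was 31.8% of that in control cells (log2 difference -1.65, standard error (SE) 0.16, adjusted p = 0.000561 by limma), in the direction its labels state. Array medians over the genes tested lay between 6.14 and 6.17 in ATRX KO and between 6.03 and 6.10 in ATRX NC. No array stood apart, with a mean correlation across genes of 0.992 within ATRX KO and 0.990 to 0.991 within ATRX NC. At an adjusted p under 0.05, 1947 genes were higher and 1251 lower in ATRX KO cells, so 60.9% of the calls were higher. That share depends on how arrays are scaled, and it was 48.7% with a second quantile normalization, 47.7% with arrays centred on their medians and 49.2% with cyclic loess.

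The promoter windows of 4 members that were higher in ATRX KO cells are shown first, because each holds a match to a short element known from inflammatory, interferon or stress responses. Each is the 250 bases before an annotated start, from RefSeq on GRCh38.p14, read 5′ to 3′ on the strand of the gene, with matches on either strand in capitals. The windows lie at chr1:7940840-7941089 on the minus strand (TNFRSF9), chr3:172523431-172523680 on the minus strand (TNFSF10), chr10:88990548-88990797 on the plus strand (FAS) and chrX:66639079-66639328 on the minus strand (EDA2R).
TNFRSF9: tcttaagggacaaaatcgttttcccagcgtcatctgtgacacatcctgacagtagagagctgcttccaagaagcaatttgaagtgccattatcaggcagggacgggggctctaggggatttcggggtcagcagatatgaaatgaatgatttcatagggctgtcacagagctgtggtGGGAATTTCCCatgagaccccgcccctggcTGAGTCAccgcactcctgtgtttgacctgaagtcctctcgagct
TNFSF10: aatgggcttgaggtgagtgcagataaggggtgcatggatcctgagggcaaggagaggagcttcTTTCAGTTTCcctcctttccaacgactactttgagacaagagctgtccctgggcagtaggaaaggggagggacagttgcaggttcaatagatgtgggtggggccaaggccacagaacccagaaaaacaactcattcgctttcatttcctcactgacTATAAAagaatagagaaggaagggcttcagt
FAS: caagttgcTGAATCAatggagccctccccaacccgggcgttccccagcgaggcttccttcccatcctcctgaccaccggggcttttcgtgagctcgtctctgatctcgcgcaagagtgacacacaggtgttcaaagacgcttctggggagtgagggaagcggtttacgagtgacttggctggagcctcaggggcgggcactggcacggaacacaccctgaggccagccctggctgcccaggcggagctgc
EDA2R: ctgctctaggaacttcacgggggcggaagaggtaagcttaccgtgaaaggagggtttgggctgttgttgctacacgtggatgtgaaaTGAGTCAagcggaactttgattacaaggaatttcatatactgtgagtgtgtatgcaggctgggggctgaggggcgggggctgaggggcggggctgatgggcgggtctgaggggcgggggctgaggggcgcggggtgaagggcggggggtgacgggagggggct

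In the TNFRSF9 window, GGGAATTTCC began 74 bases before the start and its opposite-strand match GGAATTTCCC began 1 base later, and TGAGTCA began 44 bases before the start. The first is a match to the NF-kB element GGGANNTTCC, which was found in 1.40% of all 35116 promoter windows of this length, and the other a match to the AP-1 element TGANTCA, found in 6.57% of them. The TNFSF10 window holds TTTCAGTTTC, an opposite-strand match to the interferon response element GAAANNGAAA (3.02% of windows), which began 187 bases before the start, and a TATA box, TATAAA (10.7% of windows), 31 bases before it. The AP-1 element matched at 242 bases before the start in FAS and at 163 bases in EDA2R. Windows on chromosome 8, where 5 members lie, were left out for the members but not for the 35116 windows. Of the 43 members, 28 had a window that was searched. The NF-kB element was matched in 2 of them (TNFRSF9 and LTB), the interferon response element in 4 and the AP-1 element in 6. Of these, 1, 1 and 3 members were called, among 6 called members with a window. A member counts here if any of its windows matched, whereas the percentages are per window. TNFRSF19 and TNFRSF21 had windows with no match to any of the 4 elements, and 2 further starts of FAS and 1 of EDA2R had none either. These matches describe letters in a window, and binding was not measured.

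Of the 43 members, 7 were higher in ATRX KO cells, 1 was lower and 35 did not pass the test. The share called was 18.6%, beside 9.51% of all genes tested, 13.9% of protein-coding genes and 16.7% of genes above the median level. By direction, 16.3% of members were higher (5.79% of all genes) and 2.33% were lower (3.72% of all genes). By the mean over all 6 arrays, 20 members lay above the median level of all genes, 6.10, and 7 of these were called, while 1 was called among the 23 at or below it, where 2.36% of all such genes were called. The split is not independent of the change, since TNFRSF9 and EDA2R lay above that level in ATRX KO arrays alone. The median log2 difference was 0.15 over the members and 0.07 over all genes. In 14 members the values of the groups did not overlap, 11 of them higher and 3 lower in ATRX KO cells, beside 30.2% of all genes without overlap (19.0% higher, 11.2% lower). An unadjusted p under 0.05 was reached by 12 members, and by 24.3% of all genes.

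**Figure D1:**
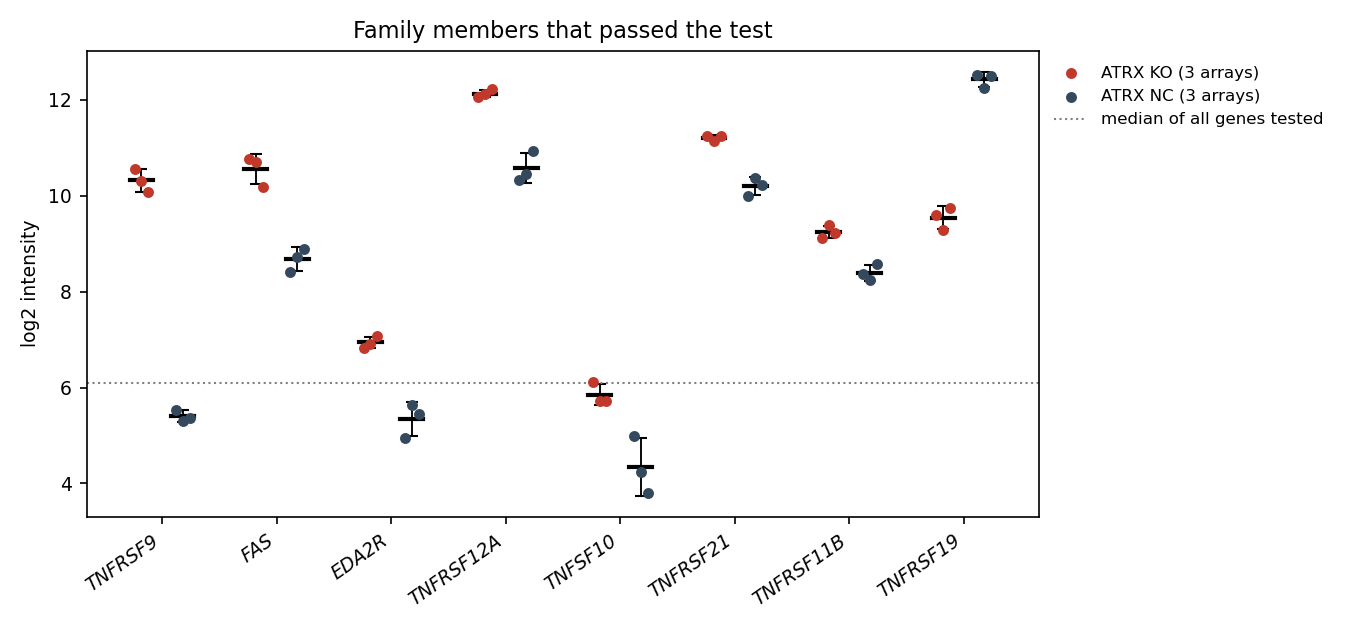
Log2 intensity (vertical axis) of the 8 members that passed the test, with 1 point per array, ATRX KO in red and ATRX NC in blue; bars are the mean and SD of 3 arrays and the dotted line is the median level of all genes, 6.10. TNFRSF9 lies near 10 in ATRX KO and near 5 in ATRX NC, TNFRSF19 lies lower in ATRX KO, and the groups do not overlap for any of the 8 genes.

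TNFRSF9 (4-1BB, CD137), a costimulatory receptor best known on activated T cells, had the largest difference among the members. Its log2 levels were 10.56, 10.31 and 10.07 in ATRX KO cells, against 5.54, 5.30 and 5.37 in ATRX NC cells. Every knockout array was above the median level of all genes and every control array below it. The difference was 4.91 (SE 0.17, 95% confidence interval 4.52 to 5.31), a 30.2-fold higher level (adjusted p = 3.41e-06 by limma). No detection call accompanies the values, so how far the control level lay above background is unknown and the fold depends on it. Its ligand TNFSF9 (4-1BBL) was at 7.01, 7.16 and 7.16 in ATRX KO cells, against 6.59, 6.82 and 6.33 in ATRX NC cells. These values did not overlap, but the difference of 0.53 did not pass the test over all genes (95% confidence interval 0.14 to 0.92, adjusted p = 0.095 by limma). TNFSF9 did pass when fewer genes were tested, at an adjusted p of 0.0288 among genes above the median level and 0.0452 among protein-coding genes.

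TNFRSF19 (TROY), an orphan-like receptor of the developing nervous system that can act as a coreceptor with LINGO1 and RTN4R, was the single member that was lower. Its log2 levels were 9.59, 9.28 and 9.75 in ATRX KO cells, against 12.53, 12.25 and 12.50 in ATRX NC cells. The groups were separated by more than the range within either of them. The difference was -2.88 (SE 0.18, adjusted p = 5.34e-05 by limma), which left 0.136 of the control level. Neither coreceptor gene passed the test, with log2 differences of -0.15 for LINGO1 and 0.27 for RTN4R.

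TNFRSF12A (Fn14), the receptor of the cytokine TWEAK, was at 12.05, 12.12 and 12.21 in ATRX KO cells, against 10.33, 10.46 and 10.92 in ATRX NC cells. It was higher by 1.56 on the log2 scale (SE 0.19), or 2.95-fold (adjusted p = 0.00152 by limma). Its ligand TNFSF12 (TWEAK) lay below the median level in every array, at 4.74, 4.80 and 4.82 in ATRX KO cells, against 5.02, 4.39 and 4.87 in ATRX NC cells. The difference of TNFSF12 was 0.03, with a 95% confidence interval of -0.40 to 0.46 that leaves room for changes of moderate size in either direction. EDA2R (XEDAR), a receptor for the A2 form of ectodysplasin and a known p53 target, was at 6.83, 6.92 and 7.07 in ATRX KO cells, against 4.95, 5.64 and 5.44 in ATRX NC cells. This was a difference of 1.60 (SE 0.20), or 3.03-fold (adjusted p = 0.0021 by limma), with all knockout arrays above and all control arrays below the median level of all genes. Its ligand gene EDA was not called, with a log2 difference of 0.31 (adjusted p = 0.372 by limma), and EDAR, the receptor for the A1 form, had one of 0.15.

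Among the 8 receptors with a death domain, FAS and TNFRSF21 were higher in ATRX KO cells and the other 6 did not pass the test. FAS (CD95), the receptor that recruits FADD directly upon binding of FAS ligand, was at 10.76, 10.70 and 10.19 in ATRX KO cells, against 8.41, 8.72 and 8.89 in ATRX NC cells. All knockout arrays lay above all control arrays. Its difference was 1.87 (SE 0.21), or 3.66-fold (adjusted p = 0.00108 by limma). The ligand FASLG, which is mainly a product of cytotoxic lymphocytes, lay below the median level in all 6 arrays, at 4.98, 4.91 and 4.88 in ATRX KO cells, against 5.13, 4.19 and 4.98 in ATRX NC cells. Its values overlapped and its difference was 0.16 (95% confidence interval -0.40 to 0.72). TNFRSF21 (DR6), a receptor that has been linked to neuronal death and can bind fragments of APP, was at 11.24, 11.15 and 11.24 in ATRX KO cells, against 10.00, 10.38 and 10.22 in ATRX NC cells. It was 2.02-fold higher (log2 difference 1.01, SE 0.16, adjusted p = 0.00542 by limma). The gene of its proposed ligand, APP, was lower (log2 difference -0.64, adjusted p = 0.0246 by limma), at 15.42, 15.45 and 15.43 in ATRX KO arrays, against 16.17, 16.04 and 16.01 in ATRX NC arrays. The call of APP was lost with every array left out in turn, at adjusted p-values of up to 0.0849.

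Of the 17 ligands, 5.88% passed the test, beside 9.51% of all genes. Of these ligands, 3 lay above the median level, and 2.36% of all genes at or below it were called. Few calls were thus due among the ligands, and a contrast between them was not tested. TNFSF10 (TRAIL) was the single ligand that passed. Its log2 levels were 6.11, 5.73 and 5.72 in ATRX KO cells, against 5.00, 4.24 and 3.81 in ATRX NC cells. The values did not overlap, although the control arrays spread over more than 1 log2 unit and the mean of either group lay below the median level of all genes. The difference was 1.50 (SE 0.29, 95% confidence interval 0.84 to 2.17), or 2.83-fold (adjusted p = 0.0155 by limma). The call of TNFSF10 was lost when either ATRX NC replicate 2 (adjusted p = 0.057 by limma) or ATRX KO replicate 1 (adjusted p = 0.0594) was left out and with the methods' t-test (adjusted p = 0.118).

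All 5 receptors of TNFSF10 had positive differences, and 1 of them passed the test. Differences between these receptors were not tested. TNFRSF11B (osteoprotegerin), a soluble decoy for TNFSF11 (RANKL) and TNFSF10, was at 9.12, 9.39 and 9.22 in ATRX KO cells, against 8.36, 8.25 and 8.57 in ATRX NC cells, a 1.81-fold higher level (log2 difference 0.85, SE 0.16, adjusted p = 0.0134 by limma). TNFSF11, its other ligand, was below the median level in every array and had a difference of -0.08 with overlapping values. TNFRSF10C (DcR1), a membrane-anchored decoy, was at 7.14, 7.39 and 7.28 in ATRX KO cells, against 6.66, 6.83 and 6.61 in ATRX NC cells. These groups were apart, yet the difference of 0.57 stayed just short of the threshold (adjusted p = 0.0507 by limma). TNFRSF10C passed among genes above the median level (adjusted p = 0.0112), above the lower quartile (0.0283) and among protein-coding genes (0.0189). TNFRSF10A (DR4), a signaling receptor, was at 6.21, 6.22 and 6.51 in ATRX KO cells, against 6.08, 5.82 and 5.15 in ATRX NC cells, also without overlap and without passing the test (difference 0.63, adjusted p = 0.157 by limma). TNFRSF10B (DR5), the other signaling receptor, was at 10.93, 11.00 and 11.52 in ATRX KO cells, against 10.92, 11.04 and 10.85 in ATRX NC cells. Its values overlapped, with a difference of 0.21 and a 95% confidence interval of -0.22 to 0.65. TNFRSF10D (DcR2), a decoy with a truncated death domain, had a difference of 0.15 at levels below the median of all genes. The genes TNFRSF10A, TNFRSF10B, TNFRSF10C and TNFRSF10D are neighbours on chromosome 8, and none of the 4 passed.

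**Figure D2:**
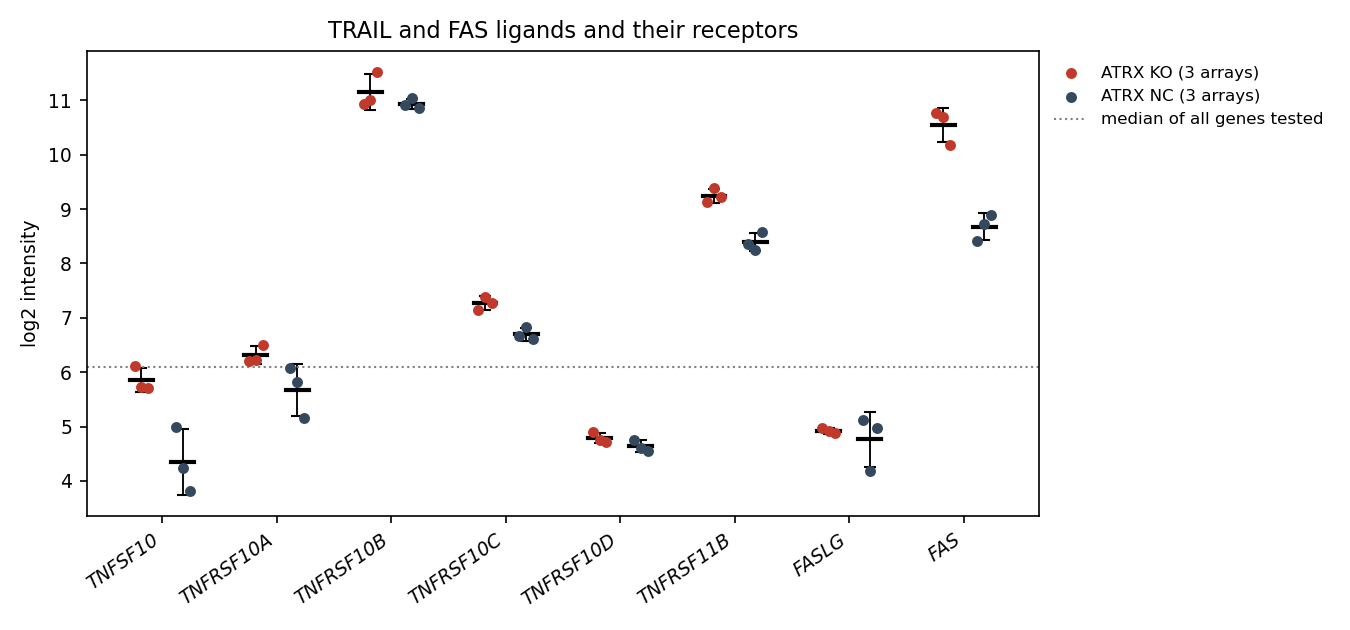
Log2 intensity (vertical axis) of TNFSF10, FASLG and their receptors, with 1 point per array, ATRX KO in red and ATRX NC in blue; bars are the mean and SD of 3 arrays. TNFSF10, TNFRSF11B and FAS passed the test, TNFRSF10A and TNFRSF10C lay apart without passing, and TNFRSF10B, TNFRSF10D and FASLG overlapped.

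The other 16 ligands gave no call, beside 9.51% of all genes, and their log2 differences ran between -0.45 for TNF and 0.53 for TNFSF9. TNF, named here after its values were seen, was at 3.25, 3.42 and 3.10 in ATRX KO cells, against 3.59, 3.97 and 3.55 in ATRX NC cells. It was thus dim in both groups and lower in ATRX KO cells without overlap, but its difference did not pass (adjusted p = 0.161 by limma). TNFSF13B (BAFF), a survival factor of B cells, had a difference of -0.38 with overlapping values. TNFSF4, CD70, LTB, TNFSF18, TNFSF15, TNFSF8, TNFSF12-TNFSF13, TNFSF13, TNFSF14 and LTA overlapped between the groups, with differences between -0.16 for TNFSF8 and 0.25 for CD70.

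TNFRSF1A, the main receptor of TNF on most cell types, was at 12.12, 12.11 and 12.27 in ATRX KO cells, against 11.82, 12.02 and 11.42 in ATRX NC cells. These values did not overlap, and the difference of 0.41 did not pass the test (95% confidence interval -0.01 to 0.83, adjusted p = 0.221 by limma). TNFRSF25 (DR3) and NGFR, both with a death domain, overlapped, with differences of -0.54 and -0.07. TNFRSF11A (RANK), the signaling receptor of TNFSF11, lay lower in every ATRX KO array than in any ATRX NC array and did not pass (difference -0.36, adjusted p = 0.247 by limma). Another, dimmer cluster of TNFRSF11A overlapped between the groups (difference -0.87). It was at 5.35, 3.98 and 5.37 in ATRX KO cells, against 5.40, 6.57 and 5.36 in ATRX NC cells. The remaining receptors were CD27, TNFRSF18, TNFRSF4, TNFRSF8, LTBR, RELT, CD40, TNFRSF14, TNFRSF13B and TNFRSF17. All of them overlapped, with differences between -0.14 for TNFRSF17 and 0.36 for CD27. None of these 10 receptors was called, beside 9.51% of all genes, and so short a list cannot tell these shares apart.

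**Figure D3:**
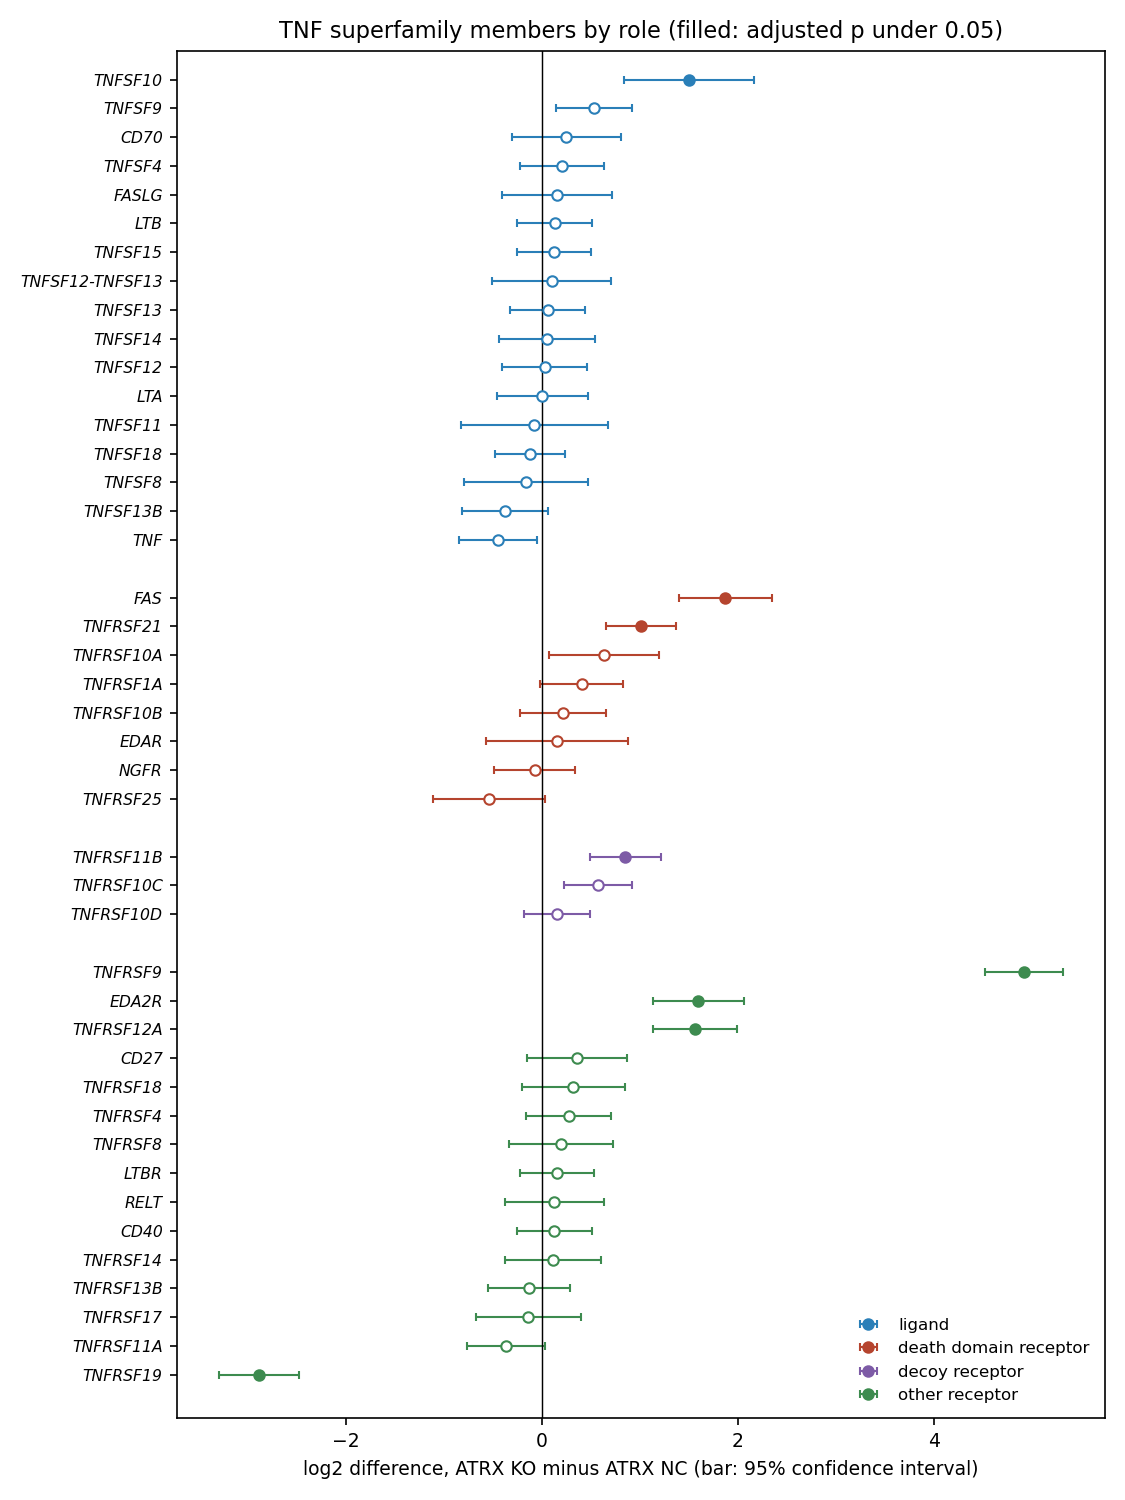
Log2 difference of ATRX KO minus ATRX NC (horizontal axis) for the 43 members, grouped as ligands, death domain receptors, decoy receptors and other receptors; bars are 95% confidence intervals and filled points passed at an adjusted p under 0.05. Filled points are 1 ligand and 7 receptors, and TNFRSF9 at 4.91 and TNFRSF19 at -2.88 lie outside the range of the rest.

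Many members lie next to each other in the genome, and 8 groups of neighbours within 1 Mb held no called member. They include LTA, TNF and LTB on chromosome 6, whose differences lay between -0.45 and 0.13, and TNFSF9, CD70 and TNFSF14 on chromosome 19, which lay between 0.06 and 0.53. None of the 8 called genes had another member within that distance. Over all genes, 9.51% were called, and 2.36% of those at or below the median level. Few calls were thus due in groups this small, and their absence was not tested.

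Genes that act downstream of the receptors or beside them were followed in 8 lists, of which 81 of 88 genes were measured. Of these, 20 were higher and 4 lower in ATRX KO cells, with a median log2 difference of 0.34. The share called was 29.6%, beside 9.51% of all genes and 13.9% of protein-coding genes. It was 16.7% among genes above the median level, where 58 of the 81 lay. Over all genes, 5.79% were higher and 3.72% lower, and each list below is to be read beside these shares. The lists were chosen with earlier results of these data known, so their shares describe the lists and are not independent evidence. Among the 9 death domain adaptors and caspases, BID was at 10.44, 10.80 and 10.78 in ATRX KO cells, against 9.24, 9.20 and 9.10 in ATRX NC cells (difference 1.50, adjusted p = 0.000848 by limma). BID is the substrate through which CASP8 engages mitochondria. CASP8 and FADD were higher by 0.91 and 0.92 (adjusted p = 0.00696 and 0.0137 by limma). FADD, CASP8, FAS and TNFSF10 are among the genes the study selected on these samples, so their direction is not independent evidence. The call of FADD was lost when ATRX NC replicate 2 or ATRX KO replicate 3 was left out (adjusted p = 0.0511 for each). EDARADD, the adaptor of EDAR, was lower (difference -0.93, adjusted p = 0.00949 by limma). CFLAR, the inhibitor of CASP8 activation, and TRADD, the adaptor of TNFRSF1A, had differences of 0.41 and 0.43 that did not pass. CFLAR did pass among genes above the median level (adjusted p = 0.0383) and with a variance trend and robust fit (0.00841).

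TRAF adaptors bind the cytoplasmic tails of TNFRSF9, TNFRSF12A, TNFRSF19 and EDA2R. Of the 6 measured, TRAF5 passed the test, and it was lower (difference -0.89, adjusted p = 0.0188 by limma). Its call was lost when ATRX NC replicate 1 or 3 or ATRX KO replicate 2 or 3 was left out (adjusted p = 0.0604, 0.0639, 0.0662 and 0.0716). TRAF1, which is known to bind TNFRSF9, was at 6.50, 6.53 and 5.91 in ATRX KO cells, against 5.38, 5.51 and 5.77 in ATRX NC cells, and did not pass (difference 0.76, adjusted p = 0.0597 by limma). TRAF1 passed among genes above the lower quartile (0.0377), among protein-coding genes (0.028), with a variance trend and robust fit (0.04) and without ATRX KO replicate 3 (0.0313). TRAF3, an adaptor that restrains noncanonical NF-kB, had a difference of 0.34.

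In the list of 15 receptor complex and ubiquitin genes, 4 were higher and 1 was lower (26.7% and 6.67%, beside 5.79% and 3.72% of all genes). TNFAIP3 (A20), a ubiquitin-editing enzyme, was at 10.95, 10.54 and 10.43 in ATRX KO cells, against 8.51, 8.84 and 8.79 in ATRX NC cells (difference 1.93, adjusted p = 0.000529 by limma), and its partners TNIP1 and TNIP3 and the deubiquitinase CYLD were higher by 0.95, 1.77 and 1.25. TAB3, a subunit of the TAK1 kinase complex, was lower (difference -2.08, adjusted p = 0.000217 by limma). Of the 8 NF-kB genes, NFKBIA, the inhibitor IkB-alpha, was at 12.27, 11.85 and 12.06 in ATRX KO cells, against 10.07, 9.92 and 9.70 in ATRX NC cells (difference 2.16, adjusted p = 0.000208 by limma), and NFKB2 was higher by 1.03, a call lost when ATRX KO replicate 1 was left out (adjusted p = 0.0531). The subunits NFKB1 and RELA did not pass, with differences of 0.29 and 0.41. Of 7 IkB kinase genes, TANK and IKBKE were higher by 0.79 and 0.74 (adjusted p = 0.0317 and 0.0447 by limma). The call of IKBKE was lost with each of the 6 arrays left out in turn (adjusted p of 0.0591 to 0.125), and that of TANK with each but ATRX NC replicate 3 (up to 0.0956). Rescaling the arrays in any of the 3 ways also ended both calls.

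Of 16 genes that TNF induces in many cell types, 7 were higher (43.8%, beside 5.79% of all genes) and none was lower (3.72% of all genes were). This list too was chosen with earlier results known, so its share is a description and not a test of enrichment. IL6 was at 10.38, 10.27 and 9.86 in ATRX KO cells, against 4.67, 5.40 and 5.36 in ATRX NC cells (difference 5.03, adjusted p = 1.38e-05 by limma). The chemokine CXCL8 was higher by 4.06 and the adhesion molecule VCAM1 by 2.43. The chemokine CCL2 averaged 14.86 ± 0.08 in ATRX KO cells and 11.86 ± 0.22 in ATRX NC cells (SD, n = 3 each). CXCL1, TNFAIP2 and CCL5 also passed, and the other 9 genes did not. The call of CCL5 was lost when ATRX KO replicate 1 or 2 was left out (adjusted p = 0.0639 and 0.0583). These genes are known to respond to several other cytokines too, and the inducer was not tested.

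Sheddases and their regulators held 1 call in 6 genes (16.7%, beside 9.51% of all genes). TIMP3, an inhibitor of ADAM17, was at 15.24, 15.09 and 15.16 in ATRX KO cells, against 14.28, 14.23 and 14.25 in ATRX NC cells (difference 0.91, adjusted p = 0.00515 by limma). The enzymes ADAM17 and ADAM10, which shed TNF, FASLG and several receptors, had differences of 0.05 and -0.13. Of 14 ligands and partners outside the family, BDNF, a neurotrophin whose precursor binds NGFR, was at 8.56, 8.41 and 8.09 in ATRX KO cells, against 5.16, 5.60 and 5.27 in ATRX NC cells (difference 3.01, adjusted p = 6.61e-05 by limma), and APP was the single gene that was lower. NGFR itself overlapped between the groups.

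**Figure D4:**
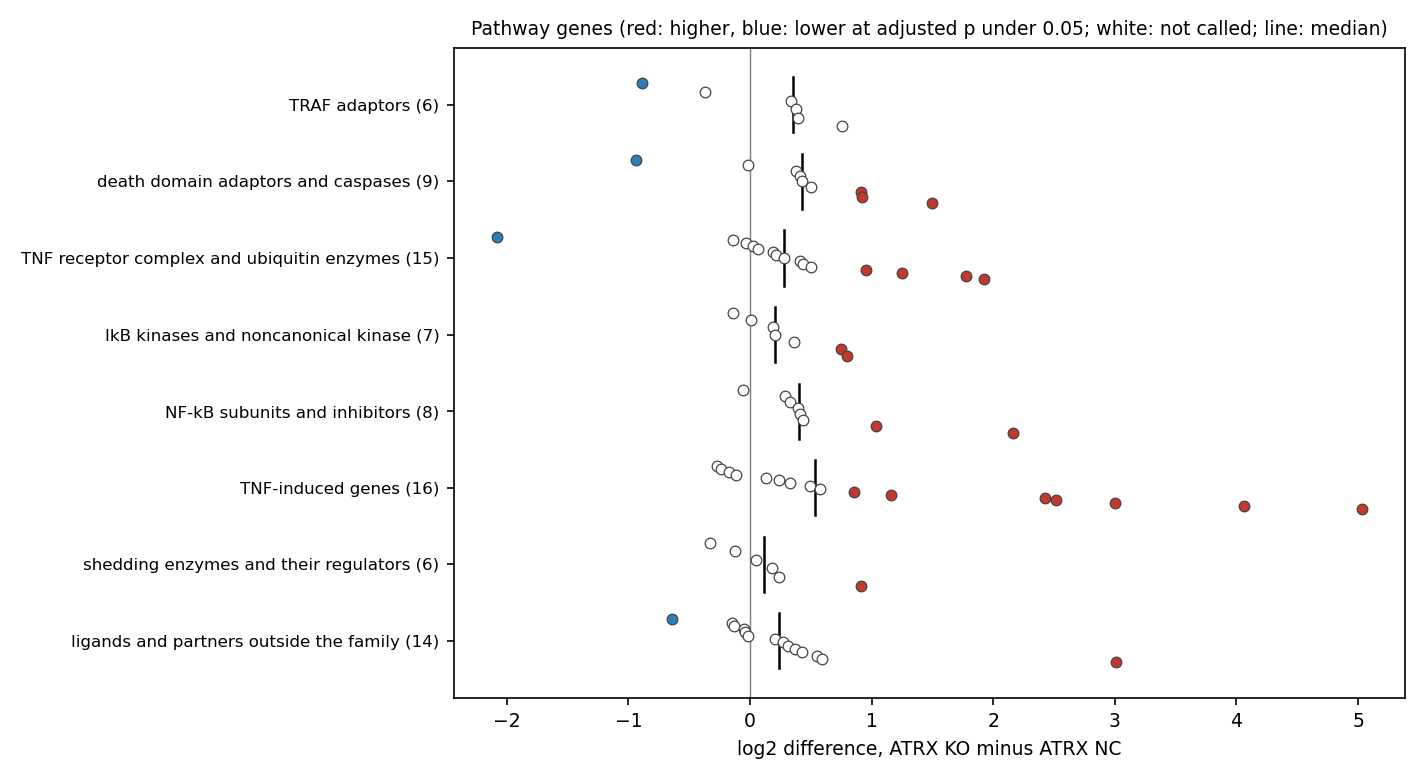
Log2 difference of ATRX KO minus ATRX NC (horizontal axis) of the measured genes of 8 pathway lists, 1 point per gene and the number measured in parentheses; red points were higher and blue points lower at an adjusted p under 0.05, white points were not called and the vertical line is the list median. Calls are mostly on the higher side, and the widest spread is among TNF-induced genes, where IL6 reaches 5.03.

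In bulk RNA, fewer cells of a type and less RNA per cell cannot be told apart, so markers of other cell types were set beside these results. The samples were cells of a cultured GBM line, and the sources name no other cell type in them. TNFRSF9, CD27, CD40 and many ligands are known from immune cells, and of 13 immune markers CD68 passed the test, and it was higher (difference 3.43, adjusted p = 4.83e-05 by limma). The T and NK cell markers CD3E, NKG7 and CD2 also lay higher in every ATRX KO array than in any ATRX NC array without passing, with differences of 0.59, 0.50 and 0.48 (adjusted p = 0.0518, 0.177 and 0.215 by limma). With CD68, 4 of the 13 immune markers lay apart and higher, beside 19.0% of all genes. The T cell marker CD3D overlapped (difference 0.11), and 3 of the 13 had negative differences. The median difference of the list was 0.11. The mean log2 level of the list was 6.17 to 6.39 in ATRX KO arrays and 5.82 to 5.96 in ATRX NC arrays. The pan-leukocyte marker PTPRC had a mean below the median level of all genes in both groups, at 5.88 in ATRX KO and 5.80 in ATRX NC. Of 8 fibroblast markers, FAP, LUM, DCN and PDGFRB were higher (5.79% of all genes were) and 4 did not pass, among them COL1A1 and ACTA2 with differences of -0.31 and -0.09. The mean log2 level of this list was 9.73 to 9.93 in ATRX KO arrays and 8.06 to 8.16 in ATRX NC arrays. Endothelial and epithelial markers had 1 higher gene each, of 6 and 5. Of 8 glioma and glial markers, EGFR was higher, NES and S100B were lower, and GFAP and OLIG2 lay below the median level in both groups. The part of these shifts in the differences of the family was not tested.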

How the data were processed

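Total RNA of 3 ATRX KO and 3 ATRX NC samples was profiled. The deposited values are log2 intensities of 135748 transcript clusters, which the authors normalized with the quantile algorithm of limma. The methods name Agilent arrays, whereas identifiers and kit are of an Affymetrix whole-transcript type; background correction, probe summary and versions were not given in the sources used here. Read depth does not apply, detection calls are absent, and precision is limited by the number of arrays.

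Symbols of the 36176 clusters with 1 symbol were updated through Entrez numbers to RefSeq (GRCh38.p14, 25516 matched), and the cluster with the highest mean per gene was kept. All 33616 genes were fitted in R 4.3.3 by lmFit and eBayes (limma 3.58.1), as tested on simulated data, with Benjamini-Hochberg adjustment over all genes at 0.05. Groups came from the labels. Promoters came from RefSeq.

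Members, lists and tests were chosen with earlier results of these data known. Named genes were called members, members with a log2 difference of at least 0.8, the 6 brightest, partners of called members, and up to 4 called genes per list with the smallest p with any that bind a called member. Alternatives were 3 scalings, 2 filters, 2 treatments of several clusters, the replicate block, a robust fit with a variance trend, the methods' t-test and the loss of each array. Protein-coding genes alone were added after seeing the data.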

Additional observations from a re-analysis of the deposited data

How the results depend on the processing

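Among the 8 called members, TNFRSF9, TNFRSF19, FAS, TNFRSF12A, EDA2R, TNFRSF21 and TNFRSF11B passed under all 17 alternatives. TNFRSF11B did so most narrowly, without ATRX KO replicate 2, at an adjusted p by limma under 0.05 that rounds to it. For TNFRSF9 and EDA2R, the filter at the median level is not an independent check. Both lay above that level in ATRX KO arrays alone. Called receptors numbered 7 or 8 throughout. Called ligands numbered 0 with the methods' t-test, 0 to 1 with single arrays left out and 2 with protein-coding genes alone, beside 1 in the fit reported. Of the pathway genes, 16 to 28 were called under the alternatives, beside 24.

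Over all genes, 3198 were called, against 4960 among genes above the median level alone, 5141 with a variance trend and robust fit, 1995 with the methods' t-test after adjustment and 1776 to 2190 with single arrays left out. With the replicate number as a block, 2059 genes were called, among them 7 receptors, 1 ligand and 22 pathway genes, without APP and IKBKE. Same-numbered arrays of the groups did not deviate together (correlations of -0.02, -0.04 and -0.00). These values show no pairing by number, but they cannot exclude that same-numbered samples were handled together.

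The alternatives were run for the 43 members and for 35 of the 81 pathway genes. Among these, the differences that reversed passed in no setting. In the order of quantile normalization, median centring and cyclic loess, the differences were -0.012, -0.036 and -0.014 for TNFSF13, -0.036, -0.039 and -0.028 for TNFSF14, -0.033, -0.065 and -0.033 for TNFSF12, -0.049, -0.088 and -0.048 for LTA, and -0.042, -0.043 and -0.034 for ADAM17. With single arrays left out, differences spanned -0.17 to 0.47 for EDAR, -0.22 to 0.011 for NGFR, -0.13 to 0.34 for FASLG, -0.49 to 0.019 for TNFSF8, -0.14 to 0.38 for TNFSF12-TNFSF13, -0.032 to 0.17 for TNFSF13, -0.12 to 0.21 for TNFSF14, -0.36 to 0.21 for TNFSF11, -0.16 to 0.16 for TNFSF12, -0.14 to 0.16 for LTA, -0.29 to 0.00 for TNFRSF13B, -0.039 to 0.31 for RELT, -0.34 to 0.036 for TNFRSF17 and -0.062 to 0.27 for TNFRSF14. The methods' t-test alone among the settings other than left-out arrays ended the calls of TNFSF10, TRAF5, FADD, TNIP3, NFKB2, TNFAIP2 and CCL5. The causes were not tested. For dim members, a missing detection call limits what a difference near 0 can show.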
